A study of Mus musculus with 32 samples.

Results

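Antisense and opposite-strand long noncoding RNA genes carry the name of a neighbouring gene with an ending that marks the opposite strand. The members described here are the transcripts annotated as long noncoding RNA whose symbol ends in os, in os and digits, or in -as. By this rule 104 genes were found among 2872 long noncoding RNA genes (3.62%) and 17784 transcripts, and all of them end in os or in os and digits. They carry 103 symbols, because 2 separate genes are named Tmem147os. The gene named in the symbol (Brip1 for Brip1os), called the named gene from here on, was annotated for every member, was protein-coding in every case and lay on the opposite strand for all 104. There are 97 different named genes.

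The study measured contacts between RNA and chromatin by RADICL-seq, in which RNA is ligated through a bridge adapter to nearby DNA inside fixed nuclei, so that every sequenced molecule pairs an RNA tag with a DNA tag. The cells were R08 mouse embryonic stem cells (mESC) and Oli-neu cells, an immortalized line of oligodendrocyte progenitor cells (mOPC). The 32 entries stand for 15 libraries in 6 groups. Cells fixed with 1% formaldehyde gave the groups mESC 1FA and mOPC 1FA, each of 3 libraries, and fixation with 2% gave 3 libraries of mESC 2FA. The other 3 groups were fixed with 1% as well. For mESC ActD4 (2 libraries) the cells were treated before fixation with actinomycin D, a blocker of transcription, at 5 µg/ml for 4 h. The NPM libraries (mESC NPM and mOPC NPM, 2 each) carry non-protein-mediated contacts, since the ligation of the RNA followed a step that degrades proteins and undoes the crosslinks. Each cell type is represented by a single line, and replicates are batches of cells of different passage number.

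Antisense RNAs are transcribed from the strand opposite to a gene, often from the same promoter region in the other direction, and some overlap the gene itself. Many stay in the nucleus near the place where they are made. For some of them an effect on the transcription, splicing or chromatin of the neighbouring gene is known, and others have no known role.

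The members were arranged around their named genes in 6 ways. The starts overlapped in 37 members, and 31 lay wholly within the named gene. A further 15 started apart from the named gene and ran away from it, 13 overlapped it at the ends, 4 enclosed it and 4 lay apart, end to end. The members spanned a median of 19047 bp, against 11442 bp for the other long noncoding RNA genes. Among the members on chromosomes 7, 10 and 11, the only ones searched, with at least 100 interactions, 4 started within 300 bases of a named gene without touching it. For the best captured pair of these, Brip1os and Brip1, and for Map2k3os and Map2k3, the bases between both starts are shown because a single short stretch holds the start regions of the antisense RNA and of its partner. Each runs 5′ to 3′ on the strand of the antisense RNA (GRCm38.p6), and capitals mark GC boxes (GGGCGG or CCGCCC) and CCAAT boxes (CCAAT or ATTGG).
Brip1os, chr11:86201194-86201369, plus strand: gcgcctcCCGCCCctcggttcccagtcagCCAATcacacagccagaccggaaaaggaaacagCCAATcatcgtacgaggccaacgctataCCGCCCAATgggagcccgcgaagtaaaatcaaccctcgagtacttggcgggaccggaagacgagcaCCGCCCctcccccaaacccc
Map2k3os, chr11:60931868-60932032, minus strand: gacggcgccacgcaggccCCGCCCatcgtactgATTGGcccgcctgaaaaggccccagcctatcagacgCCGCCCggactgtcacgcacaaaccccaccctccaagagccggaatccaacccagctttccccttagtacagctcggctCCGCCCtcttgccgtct

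The stretch of Brip1os held 3 GC boxes and 3 CCAAT boxes in 176 bases, with 1 of each overlapping. That of Map2k3os held 3 GC boxes and 1 CCAAT box in 165 bases. Of the RefSeq promoters, 30.03% held a GC box and 27.1% a CCAAT box in the 176 bases before the start, and for 165 bases the shares were 29.5% and 26.1%. Neither stretch held a TATA box (TATAAA or TTTATA) or the E box CACGTG. CG dinucleotides numbered 15 and 14, against a median of 4 in promoter windows of the same lengths. These pairs were picked after the values had been seen, and the matches are a description of the letters.

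An interaction is 1 RNA tag joined to 1 DNA tag, and the files list it only if its transcript and its 25-kb bin of DNA were significantly paired. Each 1FA and 2FA library listed between 1998951 and 2832717 interactions, and the totals were 1190366 to 1272653 in mOPC NPM, and 251802 to 608994 in the mESC libraries of the ActD4 and NPM groups. In CPM, the number of interactions scaled to an equal total for each library, markers of stem cells summed to 4144 to 4508 in mESC 1FA, with 16 of 16 in the files listed, and to 48.4 to 59.5 in mOPC 1FA, with 2 listed. Markers of oligodendrocyte progenitors summed to 16006 to 17090 CPM in mOPC 1FA (14 of 16 listed) and to 45.4 to 83.6 in mESC 1FA (10 of 16 listed).

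Members held 12646 interactions over all libraries, with a median of 26.5 per member. Capture was concentrated in a few genes. The 3 best captured members held 28.6% of the interactions and the 10 best 57.3%, whereas 44 members had under 20. The lowest number of pooled interactions in a listed pair of a member and a bin lay between 6 and 8 in every group. A member listed at 0 may therefore still have been captured below the threshold, and values are shares of each library's list, so that less RNA per cell and fewer cells cannot be told apart. The numbers of members listed were 56 in mESC 1FA, 54 in mESC 2FA, 16 in mESC ActD4, 27 in mESC NPM, 40 in mOPC 1FA and 71 in mOPC NPM. Of these, 24 were listed in both 1FA groups, and 8 were listed in all 15 libraries. Members together held 363 ± 23.6 CPM (SD, n = 3) in mESC 1FA and 606 ± 42.4 CPM (n = 3) in mOPC 1FA. In the mOPC 1FA libraries Emx2os alone held 348, 302 and 337 of the members' 1348, 1184 and 1292 interactions. Emx2os was listed at 0 in mESC 1FA. Of all listed interactions, other long noncoding RNAs held 4.02% in mESC 1FA and 16.97% in mOPC 1FA. Without the nuclear RNA Malat1, left out after the values were seen, these shares were 2.18% and 4.88%.

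**Figure D1:**
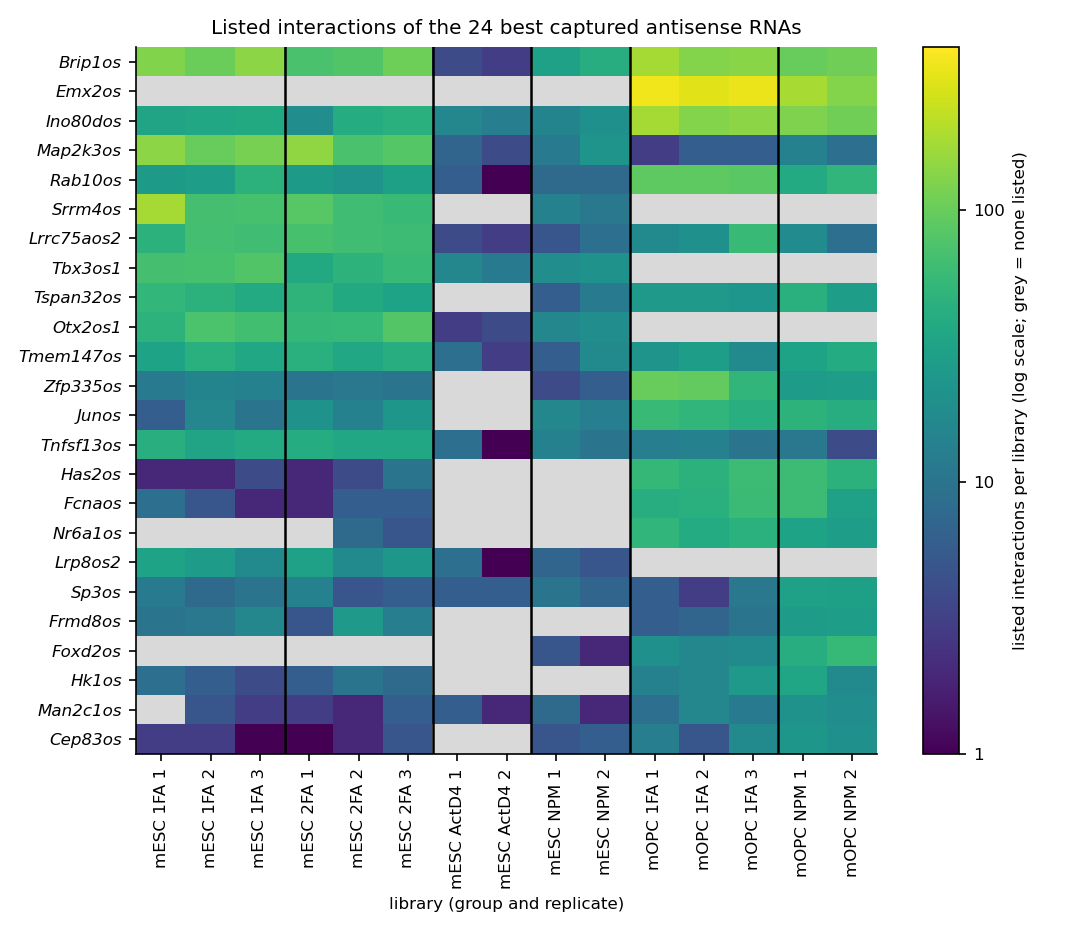
Listed interactions (colour, log scale) of the 24 best captured antisense RNAs, as rows, in the 15 libraries, as columns with black lines between groups and grey for none listed; the row Tmem147os is the gene with 409 interactions. Emx2os is grey in all 10 mESC libraries, and Srrm4os, Tbx3os1, Otx2os1 and Lrp8os2 are grey in all 5 mOPC libraries.

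The comparison of mOPC 1FA with mESC 1FA asks which of these RNAs are captured on chromatin in each cell type. With 56 members listed in mESC 1FA, 40 in mOPC 1FA and 24 in both, many were listed in only 1 of these groups. Those with enough interactions to be tested are described here. Emx2os, named for a homeobox factor of the forebrain and the urogenital tract, was listed with 348, 302 and 337 interactions in mOPC 1FA and with none in any mESC library. Nr6a1os lies within the gene of the orphan nuclear receptor Nr6a1 and had 51, 40 and 46 interactions in mOPC 1FA and none in mESC 1FA, although mESC 2FA listed 0, 8 and 5. Foxd2os, next to a forkhead factor, had 20, 16 and 17, and Zfhx2os, named for a zinc finger homeobox gene and picked after its values were seen, 19, 18 and 19, again with none in mESC 1FA. Zfhx2os had none in any mESC library, whereas Foxd2os had 5 and 2 in mESC NPM.

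Among the tested members, the reverse held for 4 that were listed at 0 in mOPC 1FA. Srrm4os, opposite the neuronal splicing regulator Srrm4, had 177, 68 and 70 interactions in mESC 1FA, so that replicate 1 lay far above the other two. Tbx3os1 had 68, 69 and 78 there, and Otx2os1 had 48, 73 and 65. Their named genes encode a T-box factor of stem cell self-renewal and a homeobox factor of early head development. Lrp8os2, within the gene of a receptor for reelin, had 32, 27 and 17. No fold is given for these 8 members because a group is listed at 0.

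Among the members listed in both cell types, Ino80dos had 33, 35 and 38 interactions in mESC 1FA and 179, 132 and 142 in mOPC 1FA. Its named gene encodes a subunit of the INO80 chromatin remodeller. The groups did not overlap, and the log2 fold change was 2.90 (SE 0.15, limma adjusted p = 4.24e-07 by Benjamini-Hochberg over all transcripts). Zfp335os, next to a zinc finger gene of neurogenesis, had 12, 15 and 14 against 98, 95 and 51 (3.30, SE 0.29), again without overlap.

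Rab10os, which meets the gene of the vesicle transport GTPase Rab10 at the ends, also rose, from 26, 28 and 47 to 90, 91 and 86 (2.27, SE 0.22). The change of Brip1os was smaller, with 127, 103 and 142 interactions in mESC 1FA and 177, 130 and 136 in mOPC 1FA. Its raw numbers overlapped, but the libraries differ in total, and the means were 46.6 ± 4.06 and 69.9 ± 9.34 CPM (SD, n = 3 each, without overlap), with a log2 fold change of 1.09 (SE 0.14, limma adjusted p = 0.000131). The size depends on the scaling, and with libraries scaled by their totals it was 0.58 and still called. Brip1 is a helicase that works with BRCA1 in DNA repair. Tnfsf13os, named after its values were seen, fell by 0.79 on the log2 scale, and by 1.29 with libraries scaled by their totals.

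Further members were low in 1 group and entered the test only through the other, so that their values are given as a description and their calls are no support for a difference. Has2os, opposite a hyaluronan synthase, had 2, 2 and 4 interactions in mESC 1FA and 54, 47 and 60 in mOPC 1FA. Fcnaos, which encloses the gene of the lectin ficolin A, had 9, 5 and 2 against 42, 45 and 59. Map2k3os was lower in mOPC 1FA, with 141, 100 and 116 interactions in mESC 1FA and 3, 6 and 6 in mOPC 1FA. Map2k3 is a kinase upstream of p38. Junos and Hk1os, named after their values were seen, were higher in mOPC 1FA.

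Of the 104 members, 22 had enough interactions to be tested and 18 passed, 12 higher in mOPC 1FA and 6 lower. Of these, 13 had entered only through the group in which they are high, the 8 listed at 0 in a group among them, and the other 5 were 4 higher and 1 lower. Of all tested transcripts, 77.9% were called in this comparison, 35.2% higher and 42.7% lower. Groups did not overlap in 19 members, with a background of 82.8%. The median log2 fold change of the tested members was 1.68 and that of all transcripts −0.20. Members enter the test when they are high in at least 1 group, so these counts describe the tested members and not the 104. Scaling by library totals instead of TMM moved the median of all transcripts to −0.70 and the share of higher among all calls from 45.2% to 32.4%, and gave 12 higher and 7 lower members.

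The next question was whether the antisense RNA touches the gene whose name it carries. In mESC 1FA, 47 of 56 listed members had a DNA tag in the named gene, and in mOPC 1FA 34 of 40. Where the genes overlap, such a tag can lie in the member's own gene as well, and 33 and 25 members had a tag in the named gene outside their own. Counting over all members, 27.8%, 27.3% and 25.2% of interactions lay in the named gene in mESC 1FA, and 14.8%, 16.05% and 16.4% in mOPC 1FA. The 2 groups did not overlap. Without tags in the own gene the shares were 14.8% ± 1.06 in mESC 1FA and 10.3% in mOPC 1FA (n = 3 each). The share in the named gene fell by 11.01 percentage points from mESC 1FA to mOPC 1FA. It fell by 1.42 when members with at least 10 interactions in every library weighed the same, and by 6.03 without Emx2os, the best captured member of both groups together.

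**Figure D2:**
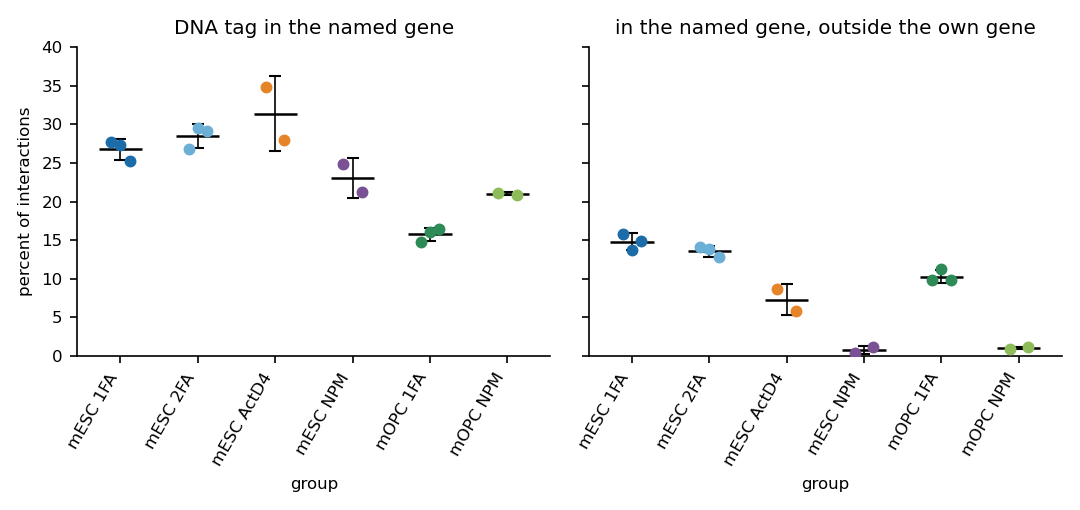
Percent of the members' interactions per library with the DNA tag in the named gene (left) and in the named gene but outside the antisense RNA's own gene (right), by group; points are libraries, lines are means and bars are SD. In the right panel both NPM groups lie near 1% and the 1FA groups at 10.3% and 14.8%.

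The share differed between the arrangements, as it must in part where the genes overlap. In mESC 1FA it was 77.3% ± 3.83 for members within the named gene, 43.9% ± 5.08 for those that overlap it at the ends, 11.1% ± 0.55 for those that overlap at the starts and 11.9% ± 0.94 for those that start apart from it (SD, n = 3 libraries each). Members that enclose the named gene were at 6.77% ± 1.65, and the 4 that lie apart, end to end, at 47.2% ± 12.7 over 42 pooled interactions. In mOPC 1FA the shares of the first 4 classes were 72.0%, 38.9%, 6.09% and 8.03%, and members that enclose the named gene were at 15.6%. Even outside the own gene, 30.2% of the interactions of members within the named gene and 25.3% of those overlapping at the ends lay in it in mESC 1FA. Members named for developmental transcription factors were at 9.30% ± 1.85 in mESC 1FA and 5.13% in mOPC 1FA, against 30.02% and 20.4% for the remaining members. Both splits that follow were chosen after the data were seen. Most of the interactions of this class came from members that overlap at the starts, and within that arrangement the shares in mESC 1FA were 8.94% ± 1.80 and 13.1% ± 0.82. In mOPC 1FA, Emx2os held 987 of the 1163 interactions of this class, and without it the share was 26.0% ± 2.34.

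The named gene was the most contacted other gene for 30 of the 53 members that contacted any other gene in mESC 1FA, and for 21 of 39 in mOPC 1FA. With the tags in the own gene left out, a count added after the data were seen, it came first, or tied for first, in 27 of 39 and in 17 of 32. Long genes and near ones have more chance of a tag. Contacts were also counted per kb outside the own gene, among the protein-coding genes within 500 kb. The named gene came first for 7 of 14 members in mESC 1FA and 9 of 16 in mOPC 1FA. Of these members 1 and 2 were not ranked, noncoding genes were left out, and distance was not matched. Lrrc75aos2, which lies within Lrrc75a, had 125 of its 176 pooled mESC 1FA interactions there (71.0%), and 76 of its 127 outside the own gene. Nr6a1os had 92 of 137 in Nr6a1 in mOPC 1FA (67.2%), or 51 of 96 outside the own gene. Lrp8os2 had 49 of 76 in Lrp8 in mESC 1FA (64.5%), or 18 of 45 outside the own gene. Srrm4os reached Srrm4 with 85 of 177, 27 of 68 and 37 of 70 interactions in the mESC 1FA libraries, so that the share was between 39.7% and 52.9% although the numbers differed. Rab10os had 41 of 101 pooled interactions in Rab10 in mESC 1FA and 93 of 267 in mOPC 1FA, or 40.6% and 34.8%.

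For other members the gene touched most often depended on how tags in the own gene were treated. Brip1os had 121 of 372 interactions in mESC 1FA and 142 of 443 in mOPC 1FA in Ints2, a subunit of the Integrator complex, and all of them lay in the gene of Brip1os as well. Of its interactions outside the own gene, 73 of 203 lay in Brip1 in mESC 1FA and 37 of 206 in mOPC 1FA. Med13, of the Mediator kinase module, received 29 and 33 of these, and Bcas3 18 and 36. Per kb, Med13 came first among the protein-coding genes with 0.55 and 0.62 contacts, against 0.51 and 0.26 for Brip1. Among these genes Brip1 ranked 2 in mESC 1FA and 5 in mOPC 1FA. Contacts of Brip1os with Brip1 numbered 20, 22 and 31 in the mESC 1FA libraries and 14, 11 and 12 in mOPC 1FA, or 19.6% against 8.40% of all its interactions. The ranges of these shares, 15.7% to 21.8% and 7.91% to 8.82%, did not overlap.

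Ino80dos contacted Ndufs1, a subunit of respiratory complex I, in 23 of 106 interactions in mESC 1FA and 132 of 453 in mOPC 1FA, of which 15 and 71 lay in its own gene as well. Outside the own gene, Ino80d received 13 of 28 interactions in mESC 1FA and Ndufs1 8, and in mOPC 1FA the counts were 58 and 61 of 254. In mESC 1FA Map2k3os had 307 interactions outside its own gene, 32 of them in the potassium channel gene Kcnj12, 30 in Natd1 and 24 in Map2k3. Tmem147os (the gene with 409 interactions) had 1 of 112 interactions in Tmem147 in mESC 1FA; it was named after its values were seen. Its 29 contacts with Gapdhs, a glycolytic enzyme of sperm, all lay in its own gene, and of the 79 outside it 10 lay in the proton pump gene Atp4a and 8 in Sbsn. In mOPC 1FA 3 of its 35 interactions outside the own gene lay in Tmem147. Per kb, Tmem147 ranked 1 there among the protein-coding genes, and 5 in mESC 1FA. Junos reached Jun, a component of AP-1, with 1 of 152 interactions in mOPC 1FA, and Foxd2os reached Foxd2 with 0 of 53.

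**Figure D3:**
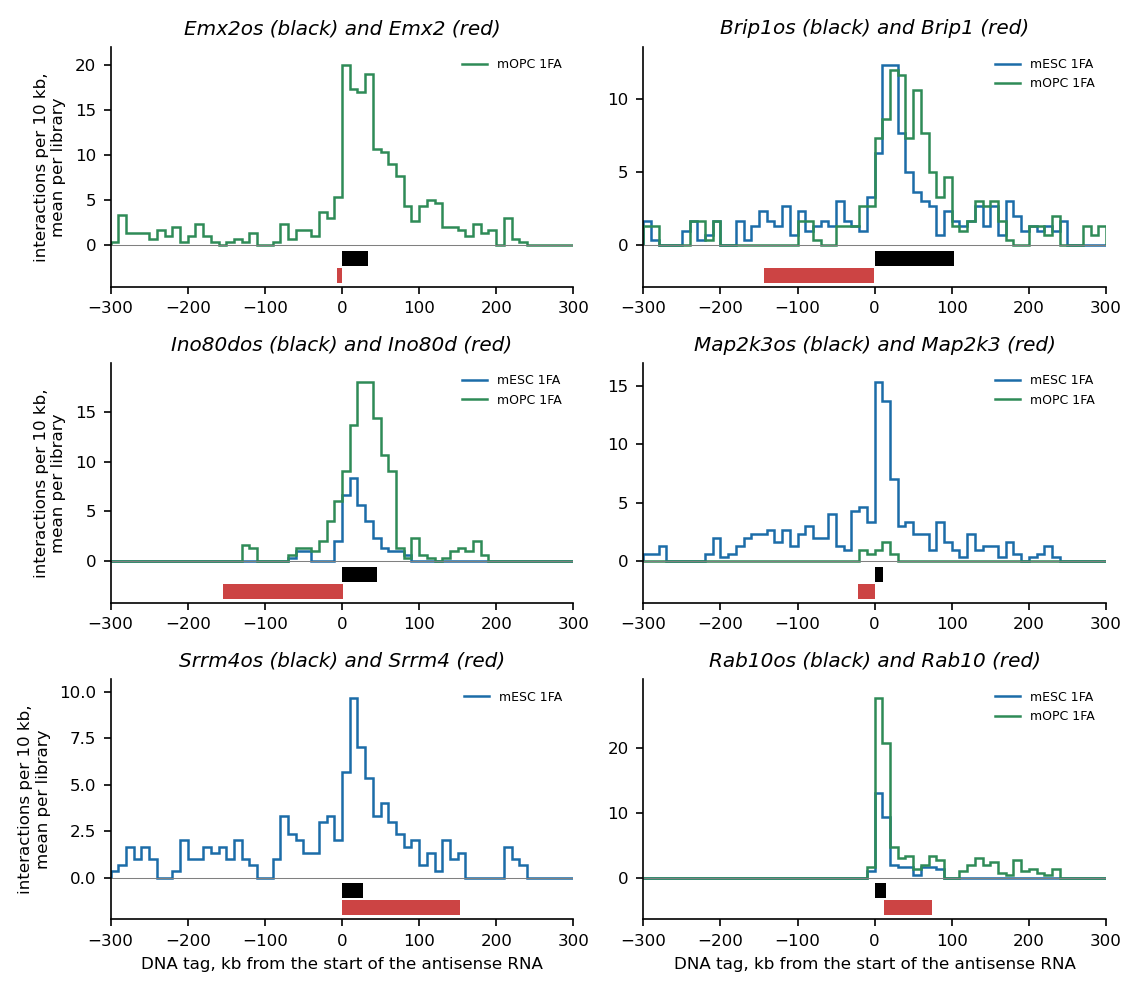
Mean listed interactions per library in 10-kb windows (vertical axis) against the position of the DNA tag in kb from the start of the antisense RNA, positive in its direction of transcription, for 6 members in mESC 1FA (blue) and mOPC 1FA (green); black bars are the antisense RNA and red bars the named gene. The contacts of all 6 peak over or next to the black bar, which for Srrm4os and Rab10os overlaps the red bar in the direction of transcription; Emx2os has 422 pooled contacts outside the plotted range.

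No member had a listed interaction with another chromosome, so reach was measured along the own chromosome. The distance between RNA tag and DNA tag had a median of 16.7 kb ± 3.84 in mESC 1FA and 26.8 kb ± 5.11 in mOPC 1FA (SD over 3 libraries each). Contacts beyond 100 kb made up 20.9%, 17.5% and 17.6% of the members' interactions in the mESC 1FA libraries and 29.3%, 30.9% and 28.1% in mOPC 1FA, without overlap. For other transcripts, contacts beyond 100 kb or with another chromosome made up 54.3% (protein-coding) and 70.8% (other long noncoding) in mESC 1FA, and 53.3% and 88.6% in mOPC 1FA. Malat1, an abundant nuclear RNA, held much of the last class, and without it (an alternative chosen after the values were seen) the share of other long noncoding RNAs was 48.8% in mESC 1FA and 63.3% in mOPC 1FA. Contacts with another chromosome alone were 0.16% and 41.6% in mESC 1FA, and 0.17% and 70.4% in mOPC 1FA, and for other long noncoding RNAs without Malat1 0.33% and 8.43%. Members had the lower share in 15 of 15 libraries against each class, also without Malat1. An RNA with few interactions is listed only where several fall into the same bin, and the part of this limit in the difference was not tested.

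**Figure D4:**
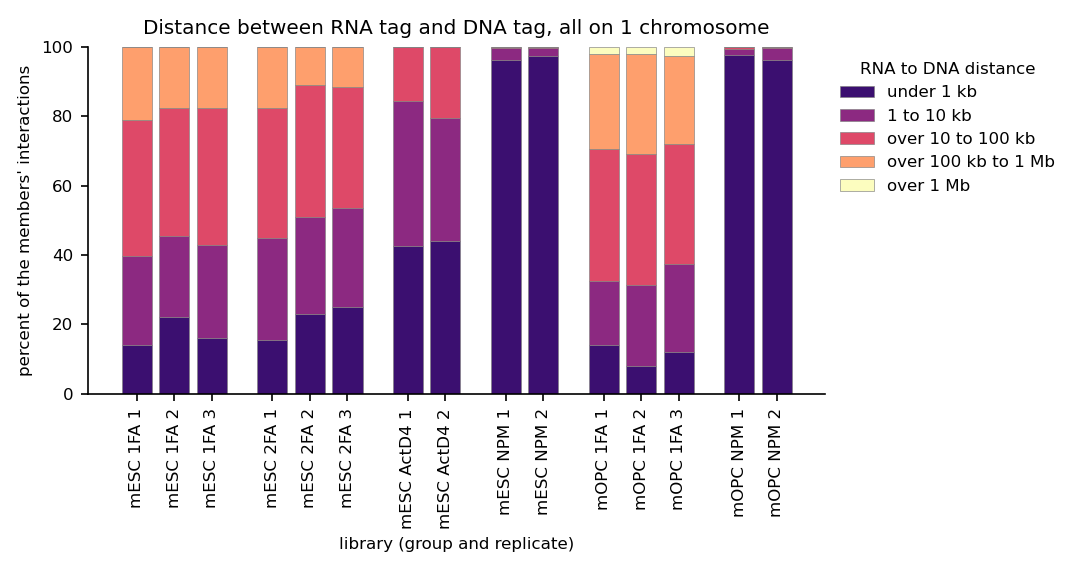
Percent of the members' interactions per library (bars, from 0 to 100) in 5 classes of distance between RNA tag and DNA tag on the same chromosome. The classes beyond 100 kb appear in the 1FA and 2FA libraries, and the NPM bars are almost wholly in the class under 1 kb.

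Only 18 members had any contact beyond 100 kb, and 3 beyond 1 Mb. Emx2os reached farthest. In mOPC 1FA, 190 of 348, 184 of 302 and 178 of 337 of its interactions lay beyond 100 kb, with a median distance of 172 kb, 41 pooled interactions beyond 1 Mb and the farthest 2370 kb away in Ablim1. Its named gene Emx2, with which it shares 264 bp at the start, received 14 of its 987 pooled interactions (1.42%). Per kb outside the own gene Emx2 ranked first among the protein-coding genes, with 13 contacts over 6.72 kb. Without Emx2os, the difference in distant contacts between mOPC 1FA and mESC 1FA was 1.46 percentage points, against 10.7 with it.

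Ino80dos differed between cell types in reach. None of its 106 pooled interactions in mESC 1FA lay beyond 100 kb, while in mOPC 1FA 34 of 179, 39 of 132 and 39 of 142 did, the farthest at 2145 kb. Its pooled interactions rose from 106 to 453, and the part of this number in its reach was not tested. Has2os reached 1207 kb in mOPC 1FA. Brip1os reached beyond 100 kb in 40.9% of its interactions in mESC 1FA and 35.7% in mOPC 1FA, Srrm4os in 38.7% in mESC 1FA and Map2k3os in 32.8%. At the other end, Lrrc75aos2, Lrp8os2 and Frmd8os had no contact beyond 100 kb in mESC 1FA.

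The stronger fixation was compared in mESC 2FA against mESC 1FA. The digestion of chromatin with DNase I also lasted longer for these cells, so that fixation and digestion cannot be told apart. Map2k3os had 146, 72 and 82 interactions with the stronger fixation against 141, 100 and 116, and Srrm4os had 85, 63 and 57 against 177, 68 and 70. For both the libraries of the groups overlapped in number. Of 15 members tested by limma, 0 passed after Benjamini-Hochberg adjustment, and 2 had an unadjusted p under 0.05 (Junos and Tbx3os1). Of all transcripts 0.0305% were called, 0.0203% higher and 0.0102% lower. Groups did not overlap in 2 members, with a background of 18%. The share in the named gene was 26.7% to 29.6% in mESC 2FA and overlapped that of mESC 1FA, and the share beyond 100 kb was 13.3% ± 3.64. It fell by 5.39 percentage points from mESC 1FA, from 20.9%, 17.5% and 17.6% to 17.5%, 10.96% and 11.5%, with the highest 2FA library just below the lowest 1FA library.

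Blocking transcription for 4 h was compared in mESC ActD4 against mESC 1FA. Brip1os had 4 and 3 interactions after actinomycin D, or 10.7 ± 1.67 CPM (SD, n = 2) against 46.6 ± 4.06 (n = 3). Both treated libraries lay below all 3 untreated ones, with a log2 fold change of −2.27 (SE 0.24, limma adjusted p = 0.000135). Map2k3os had 7 and 4 interactions (log2 fold change −1.62), Lrrc75aos2 4 and 3 (−1.20) and Otx2os1 3 and 4 (−1.27). A listed pair of a member and a bin held at least 7 pooled interactions in mESC ActD4, so that Brip1os, Lrrc75aos2 and Otx2os1 lay at this limit. Contacts in bins below it are not listed, and the part of this limit in the falls was not tested. Srrm4os, Tspan32os, Zfp335os and Frmd8os, with means of 105, 46.3, 13.7 and 12.3 in mESC 1FA, were listed at 0 in both treated libraries. The treated libraries list far fewer interactions, so a member with as few as Zfp335os or Frmd8os can fall below the limit without a change in its share. These 0 values are therefore not read as a loss.

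Ino80dos moved the opposite way and held 16 and 13 interactions after the treatment. In CPM this was 44.9 ± 9.49 against 13.4 ± 0.98, without overlap, and the log2 fold change was 1.53 (SE 0.26, limma adjusted p = 0.0017). Without the contacts in its own gene it no longer passed (1.02, limma adjusted p = 0.0538). Sp3os, next to the gene of a transcription factor of the Sp family, had 6 and 6 interactions against 12, 8 and 10 in far larger libraries. A positive value means a larger part of the listed interactions, not more RNA.

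Of 18 members tested, 13 passed, 5 higher and 8 lower after actinomycin D. Of these, 8 had entered only through the group in which they are high, Sp3os and the 4 at 0 after the treatment among them, and the other 5 were Ino80dos and 4 that fell. Of all transcripts 62.0% were called, 21.7% higher and 40.3% lower. Groups did not overlap in 14 members, with a background of 74.9%. The higher ones also include H3f3aos, Man2c1os and Kank4os, named after their values were seen, each with means of at most 5 interactions in both groups. Without replicate 2 or replicate 3 of mESC 1FA, 7 members passed. The call of Otx2os1 was lost under total scaling and without any of 4 libraries (each mESC 1FA library, or replicate 1 of mESC ActD4), and that of Lrrc75aos2 without replicate 2 or 3 of mESC 1FA. Contacts beyond 100 kb were listed at 0 in both treated libraries, and the median distance was 1.70 kb ± 0.31. Members held only 19 listed pairs in mESC ActD4, each of at least 7 pooled interactions, against 188 pairs in mESC 1FA. The part of this limit in the 0 was not tested. Beyond 100 kb or with another chromosome, protein-coding transcripts kept 26.8% (0.054% with another chromosome) and other long noncoding RNAs 58.8%, or 22.2% without Malat1. Named-gene contacts were 34.8% and 27.9% of the members' interactions, and 8.70% and 5.88% outside the own gene.

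Digestion of protein before ligation left contacts that were almost wholly local. Between 96.1% and 97.6% of the members' interactions in the 4 NPM libraries joined tags less than 1 kb apart, against 17.4% ± 4.17 in mESC 1FA and 11.3% in mOPC 1FA. Contacts beyond 100 kb were listed at 0 in all 4 NPM libraries, where a listed pair held at least 7 (mESC) or 8 (mOPC) pooled interactions. The members' own gene held 99.0% of the interactions for mESC and 98.7% for mOPC. The same loss of distance was present in protein-coding transcripts, of which 3.71% and 1.34% of interactions remained beyond 100 kb or with another chromosome in mESC NPM and mOPC NPM. Other long noncoding RNAs kept more, 6.90% and 31.4%, or 2.72% and 11.3% without Malat1. The whole share in the named gene, tags in the own gene included, was 24.9% and 21.2% in mESC NPM and 21.2% and 20.9% in mOPC NPM. It fell by 3.69 percentage points against mESC 1FA and rose by 5.27 against mOPC 1FA, with no overlap in either cell type. The direction in mESC reversed with members weighing the same or with each pair counted once, as given below. Contacts with the named gene outside the own gene fell to 0.76% ± 0.53 in mESC NPM and 1.048% ± 0.11 in mOPC NPM (n = 2 each), below every 1FA library.

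The permutation test over both cell types could be applied to the 2 members with at least 10 interactions in all 10 libraries concerned. Brip1os had 0 of 31, 0 of 42, 0 of 100 and 0 of 108 interactions in Brip1 in the 4 NPM libraries. Against 19.6% and 8.40% in the 1FA groups this gave p = 0.01 by the exact permutation test (two-sided, within cell type, 100 regroupings, n = 10 libraries), the smallest the design allows, and 0.02 after Benjamini-Hochberg adjustment over the 2 members. Brip1os starts 177 bp from Brip1 without overlap, so that this value and the loss of contacts beyond 1 kb are not separate results. Pairs were called on pooled replicates, so that the libraries of a group share the same list and are not independent. The permutation test treats them as if they were. With 1 library fewer, the exact permutation p of Brip1os was 0.0167 or 0.025, each the smallest possible, and 0.0333 to 0.1 after adjustment over the 2 to 4 members tested, so that these settings say nothing about stability. For Ino80dos the exact permutation p was 0.37, with Ino80d in 17.2% ± 5.85 and 13.9% ± 0.23 of its interactions in mESC 1FA and mOPC 1FA and in 20% and 4.89% in the NPM groups. Ino80dos shares 1590 bp with Ino80d.

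Capture in mESC NPM was compared with mESC 1FA. Map2k3os had 12 and 22 interactions (log2 fold change −1.16, SE 0.24), Lrrc75aos2 5 and 9 (−1.39) and Srrm4os 14 and 11 (−1.22). The groups overlapped in CPM for Srrm4os, whose fold was −0.71 and not called without mESC 1FA replicate 1. For pairs with adjusted p under 0.001 the fold of Srrm4os was −0.95 and not called, and without mESC NPM replicate 2 it was −0.85. Junos had 16 and 13 interactions against 6, 16 and 10 in far larger libraries. Frmd8os was listed at 0 in both NPM libraries, where a listed pair held at least 7 pooled interactions, so that the 0 is not read as a loss. Of 20 members tested by limma, 9 passed, 5 higher and 4 lower. All 5 higher ones and Frmd8os had entered only through the group in which they are high. Of all transcripts 53.2% were called, 24.8% higher and 28.4% lower. Groups did not overlap in 14 members, with a background of 74.3%. Scaling by library totals gave 8 higher and 1 lower, the calls of Map2k3os, Lrrc75aos2 and Srrm4os being lost, and raised the median of all transcripts from 0.03 to 0.70 and the share of higher among all calls from 46.6% to 81.3%. Without mESC NPM replicate 1, 5 members passed.

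In mOPC NPM against mOPC 1FA, more members were listed, 71 against 40. Other long noncoding RNAs listed per library rose as well, from between 1034 and 1056 in mOPC 1FA to 1899 and 1898 in mOPC NPM. Nkx2-2os, opposite a homeobox factor of the oligodendrocyte lineage, had 33 and 29 interactions in mOPC NPM and was listed at 0 in mOPC 1FA. Gad1os, opposite a gene of GABA synthesis, had 18 and 17 against 0 (named after its values were seen). Sp3os had 31 and 30 against 6, 3 and 11, and Frmd8os 27 and 29 against 6, 7 and 10. Foxd2os had 42 and 55 against 20, 16 and 17 (log2 fold change 1.39, SE 0.29). The second Tmem147os gene had 18 and 25 interactions against 7, 7 and 12. In these members both NPM libraries lay above all 3 1FA libraries, but all except Foxd2os entered the test only through mOPC NPM, so that their calls are no support for a difference.

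A further 6 members fell. Emx2os had 181 and 130 interactions in mOPC NPM (log2 fold change −1.13, SE 0.12, limma adjusted p = 0.00038), Zfp335os had 27 and 28 (−1.53, SE 0.32) and Rab10os 39 and 52 (−1.01, SE 0.21, the groups overlapping in CPM). The falls of Nr6a1os (−0.61), Brip1os (−0.53) and Ino80dos (−0.40) were small and turned into 0.19, 0.28 and 0.41 when libraries were scaled by their totals. Under that scaling the calls of Emx2os (−0.32, limma adjusted p = 0.081), Zfp335os (−0.72, 0.0621) and Rab10os (−0.21, 0.372) were lost as well. Of 39 members tested, 22 passed, 16 higher and 6 lower, and 15 of the higher ones had entered only through mOPC NPM. Of all transcripts 55.9% were called, 31.8% higher and 24.1% lower. Groups did not overlap in 33 members, with a background of 81.1%. Under total scaling 29 were higher and 0 lower, the median of all transcripts rose from 0.32 to 1.12, and the share of higher among all calls from 56.9% to 90.7%. The count was 13 without mOPC 1FA replicate 1, 14 without mOPC 1FA replicate 2, 7 without mOPC NPM replicate 1 and 6 without mOPC NPM replicate 2, and Sp3os, Frmd8os, Zfp335os, Nr6a1os, Ino80dos and the second Tmem147os gene kept the call in neither of the last 2. Without mOPC 1FA replicate 1 or 2, the calls of Nr6a1os, Ino80dos, Brip1os and the second Tmem147os gene were lost, that of Nr6a1os also without mOPC 1FA replicate 3, that of Brip1os without mOPC NPM replicate 1 and that of Foxd2os without mOPC NPM replicate 2.

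Between the cell types without protein, mOPC NPM against mESC NPM, 30 members were tested and 23 passed, 18 higher and 5 lower. Of these, 19 had entered only through the group in which they are high, and the other 4 were Ino80dos, Rab10os, Brip1os and Tspan32os, all higher. Of all transcripts 50.3% were called, 27.2% higher and 23.1% lower. Groups did not overlap in 25 members, with a background of 79.3%. Emx2os, Has2os, Fcnaos, Nr6a1os and Nkx2-2os were listed at 0 in mESC NPM and with means of 155.5, 54.0, 45.5, 30.5 and 31.0 interactions in mOPC NPM. Tbx3os1 had 19 and 21 interactions in mESC NPM and was listed at 0 in mOPC NPM. Ino80dos had 15 and 20 against 126 and 108 (log2 fold change 1.88, SE 0.20, limma adjusted p = 0.00126). Total scaling gave 15 higher and 6 lower members, and moved the share of higher among all calls from 54.0% to 38.9%. Under it the calls of Brip1os (from 0.67 to 0.27, limma adjusted p = 0.285) and Tspan32os (from 1.204 to 0.81, 0.131) were lost. Without mOPC NPM replicate 1 the fold of Ino80dos was 1.86 and not called (limma adjusted p = 0.0502). The calls of Rab10os, Zfp335os, Brip1os, Tspan32os and Map2k3os were lost without any 1 of the 4 libraries, and that of Foxd2os without either mOPC NPM library. Without mOPC NPM replicate 1 or 2, 12 and 15 members passed.

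The RNA of the named gene was set beside the antisense RNA in the same fits. Of the 97 named genes, 64 were tested in mOPC 1FA against mESC 1FA and 55 passed, 29 higher and 26 lower, beside 77.9% of all transcripts called. Both partners were tested in 15 pairs and both passed in 11, in the same direction in 8 and in opposite directions in 3. With most transcripts called, nothing is read from these pair counts. Brip1 interactions numbered 279, 248 and 334 in mESC 1FA and 53, 43 and 51 in mOPC 1FA, with no overlap, so that Brip1 fell (−1.70, SE 0.12, limma adjusted p = 4.73e-06) while Brip1os rose. The other opposite pairs were Lrp8os2 with Lrp8 and Zfhx2os with Zfhx2, in which the antisense RNA was listed at 0 in 1 group. Has2 was higher in mOPC 1FA like Has2os, with 0, 3 and 4 against 132, 140 and 122, and so were Jun and Junos, picked after their values were seen. Has2os and Junos had entered the test only through mOPC 1FA, so their calls are no support for a difference. Tbx3, with 302, 236 and 287 interactions in mESC 1FA, and Srrm4, with 19, 27 and 29, were listed at 0 in mOPC 1FA, as were their antisense RNAs. The called rise of Rab10 (0.35) rests on the scaling, since it had 110 CPM in mESC 1FA and 98.7 CPM in mOPC 1FA.

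**Figure D5:**
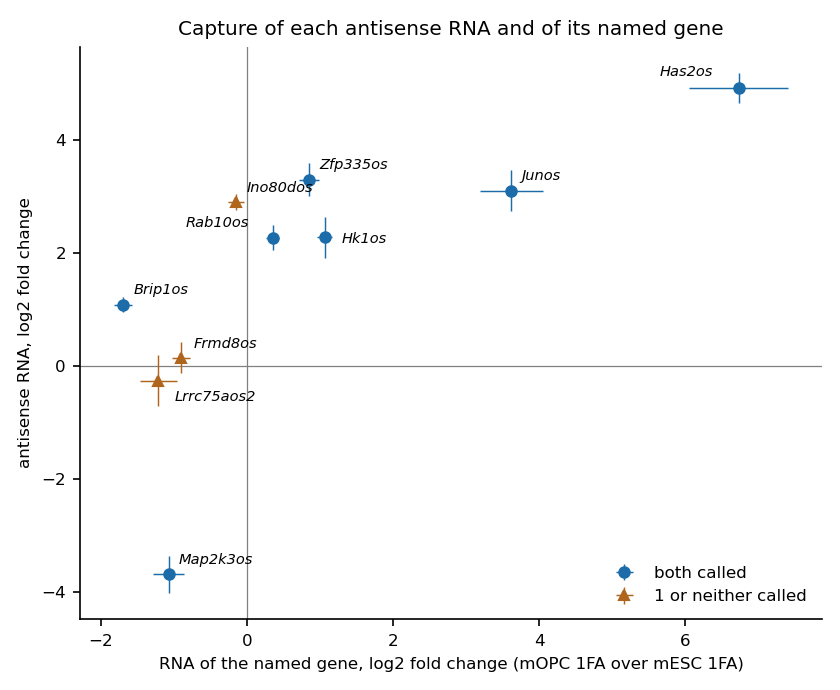
Log2 fold change of mOPC 1FA over mESC 1FA for the antisense RNA (vertical axis) and for the RNA of its named gene (horizontal axis) in the 10 pairs with interactions of both partners in both groups; bars are SE, circles mark pairs in which both passed and triangles the others. Among the circles only Brip1os and Brip1 have opposite signs, under this scaling.

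Emx2 was captured far less than Emx2os, with 3, 3 and 5 interactions in mOPC 1FA where Emx2os had 348, 302 and 337. After actinomycin D, 37 of 60 named genes tested passed, 6 higher and 31 lower, beside 62.0% of all transcripts called, and both partners passed in 4 of 14 pairs. Brip1os and Brip1 both fell, and Sp3 was at −0.63. Sp3os had entered the test only through mESC ActD4, the group in which it is high, so its call is no support for a difference. Ino80d had 59 and 33 interactions after the treatment, or 136 ± 6.95 CPM against 139 ± 6.18 CPM without it, while Ino80dos rose. For NPM against 1FA, both partners passed in 5 of 17 pairs in mESC, 4 in the same direction and 1 in opposite directions, beside 53.2% of all transcripts called. In mOPC they passed in 11 of 29, 6 in the same direction and 5 in opposite directions, beside 55.9% of all transcripts called.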

How the data were processed

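Every line of the 15 deposited files is an interaction whose transcript and 25-kb bin of DNA form a significant pair. The authors aligned RNA and DNA tags to mm10 (processing notes: BWA 0.7.15-r1140, CASAVA 1.8), assigned RNA tags to genes by strand, tested each pair with pooled replicates and deposited its p-value and adjusted p-value, which are below 0.05. The replicates of a group therefore share 1 list of pairs, and their spread understates that of independent calls. Depth is not known from such lists.

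Members, named genes and lists were chosen with earlier results of these data known. Symbols and positions come from GENCODE M21. Identical interactions were counted once. Where genes overlap, a DNA tag counts for each. Interactions were counted per transcript and library, kept at a count minimum of 10 (scaled to library size, in as many libraries as the smaller group holds) and a total minimum of 15, scaled by TMM factors, and converted to log2 CPM with a prior count of 0.5. Each comparison was fitted over all transcripts with limma 3.58.1 (R 4.3.3, trended prior variance, two-sided), adjusted by Benjamini-Hochberg and called at 0.05. Shares used Python 3.11.15, pandas 2.3.3 and numpy 2.4.6. On simulated counts, changes of 2 on the log2 scale were recovered in 71.5% of cases for mESC ActD4, 84.0% for mESC NPM and 99.5% for mOPC 1FA against mESC 1FA, and changes of 1 in 0%, 9.5% and 65.1%, so a member not called was not shown to be unchanged.

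Members named have a mean of 100 interactions in a group, or are among the 5 called members per direction with the largest change and a mean of 20; others are said to be named afterwards. Replicate numbers of mESC 2FA and mESC 1FA went together in every replicate (correlations of deviations 0.397, 0.427 and 0.627). In the other comparisons the correlations lay between −0.126 and 0.124, except 0.340 for replicate 2 of mOPC NPM against mOPC 1FA. Markers of other cells in mESC 1FA and mOPC 1FA summed in CPM to 26.6 to 54.9 and 353 to 399 (neurons), 91.8 to 135.6 and 37.5 to 52.5 (astrocytes), 1.06 to 3.75 and 0 (fibroblasts), and 48.0 to 187.1 and 0 (endoderm).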

Additional observations from a re-analysis of the deposited data

Results flagged for a closer look

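The change on removal of protein was compared between the cell types by an interaction term in limma over all 4 groups, and 28 of 49 tested members passed after Benjamini-Hochberg adjustment, with 35.7% of all transcripts called. Of these, 23 were listed at 0 in a group, where the size depends on the prior count. Members could enter this test through the libraries of a single group, and the way of entry was not checked here. The count describes the tested members, and nothing is read from it beside the share of all transcripts. The 5 members listed in all 4 groups are given here, a restriction made after the values were seen. The difference (mOPC minus mESC, log2) was −2.48 for Junos, −1.86 for Zfp335os and −1.18 for Ino80dos, and 1.13 for Tspan32os and 2.16 for Map2k3os. Junos was at 2.15 in mESC and at −0.20 in mOPC, and Zfp335os was at 0.21 and fell in mOPC by 1.53. Ino80dos was at 0.65 in mESC and −0.40 in mOPC, Tspan32os at −0.73 and 0.52, and Map2k3os at −1.16 and 1.11. Junos in mESC and Map2k3os in mOPC had entered the comparison with 1FA only through NPM, where they are high. The differences of these members are a description and no support. Not called within a cell type were Zfp335os and Ino80dos in mESC, Junos and Map2k3os in mOPC, and Tspan32os in both. Tspan32os lost the call with the replicate block (limma adjusted p = 0.0623), at the stricter pair threshold (0.0983) and without any of 7 libraries. Causes were not tested.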

How the results depend on the processing

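The numbers of members called, in the order mOPC 1FA and then mESC 2FA, ActD4 and NPM against mESC 1FA, mOPC NPM against mOPC 1FA, mOPC NPM against mESC NPM, and the difference in NPM effect, were 58, 18, 47, 45, 51, 68 and 66 with no filter on low counts. Leaving out 1 library gave 19 to 22, 0 to 0, 7 to 16, 5 to 10, 6 to 19, 12 to 24 and 22 to 37. The fit with the replicate number as a block gave 18, 0, 13, 8, 24, 23 and 26. Of the members named it ended the calls of Sp3os in mESC NPM (limma adjusted p = 0.0504), of Nr6a1os in mOPC NPM against mOPC 1FA (0.0846) and of Tspan32os in the difference. Without contacts in the RNA's own gene, 13 members were called in mOPC NPM against mOPC 1FA and 16 in the difference. In mOPC NPM against mESC NPM no member then had enough interactions to be tested. The share of all transcripts called was not computed under these settings, so these counts have no background and are not read as results about the members. Without the filter 18 members were called for mESC 2FA, where the main fit called 0.

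The difference in named-gene share (percentage points) between mOPC 1FA and mESC 1FA was −1.42 with members weighing the same, −6.03 without the most captured member, −4.52 without tags in the own gene and −14.4 with 10 kb added on either side; leave-one-out gave −11.8 to −10.5. For mESC 2FA it was 3.52 for pairs with adjusted p under 0.001 and reversed to −1.22 without tags in the own gene (0.96 to 2.6 leaving out 1 library). For mESC ActD4 it was 16.7 with each pair counted once, −7.52 without tags in the own gene and 24.1 with 10 kb added (1.19 to 8.03). For mESC NPM it was 7.14 with members weighing the same, 1.34 with each pair counted once, −1.0 without the most captured member, −14.0 without tags in the own gene and 13.5 with 10 kb added (−5.54 to −1.85). For mOPC NPM against mOPC 1FA the values under these 5 settings were 4.33, 28.8, 2.77, −9.24 and 26.6, and 2.94 for the stricter pairs (4.78 to 5.6). For mOPC NPM against mESC NPM it was 16.8 with each pair counted once (−3.90 to −0.20). The values with all tags, −3.69 for mESC NPM, 5.27 for mOPC NPM against mOPC 1FA, 4.61 for mESC ActD4 and −2.05 between the NPM groups, thus have the opposite sign to some of these.

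The difference in contacts beyond 100 kb, with members weighing the same, each pair counted once, the stricter pairs, without the most captured member and beyond 1 Mb, was 8.54, 17.7, 7.70, 1.46 and 2.17 for mOPC 1FA, −12.9, −32.0, −13.5, −15.4 and 0 for mESC ActD4, −25.3, −32.0, −13.5, −15.4 and 0 for mESC NPM, and −21.5, −49.7, −21.2, −20.2 and −2.17 for mOPC NPM against mOPC 1FA. For mESC 2FA it was 0 beyond 1 Mb. Leave-one-out gave 9.99 to 11.9 for mOPC 1FA, −7.49 to −4.21 for mESC 2FA, −19.3 to −17.6 for mESC ActD4 and mESC NPM, −30.1 to −28.7 for mOPC NPM against mOPC 1FA and 0 to 0 between the NPM groups. The permutation test called 2 members without tags in the own gene, a setting that leaves almost no NPM contacts, and 0 to 2 leaving out 1 library, where the smallest possible p of 0.0167 or 0.025 can miss the threshold after adjustment.

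Under total scaling Ino80dos (0.41), Nr6a1os (0.19) and Brip1os (0.28) reversed in mOPC NPM against mOPC 1FA. In the difference in NPM effect, Fcnaos (−5.18), Has2os (−6.14) and Foxd2os (2.63) reversed without contacts in the own gene, and Foxd2os (1.39) and Has2os (−0.11) for the stricter pairs. Of 1202 values of single members under the alternatives, 1073 kept direction and call, 121 lost the call and 8 reversed. The causes were not tested. Members with few interactions and groups of 2 libraries limit what could be called.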

Other observations

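Exonic tags made up 16.4% ± 1.59 (SD, n = 3) of the members' RNA tags in mESC 1FA. Outside the own gene, 54.9% ± 1.15 of contacts in mESC 1FA lay downstream of the RNA tag, in the direction of transcription. DNA tags within 2 kb of the start of the named gene made up 5.34% ± 0.61 of the members' interactions there.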
